A study of Zea mays with 48 samples.

Results

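The probe sets described here are those whose total RNA signal in the maize pulvinus was highest 30 min after the plant was laid on its side. They number 96 of the 17545 probe sets on the array. They were chosen by their total RNA values on the scale log2(signal + 16), a scale that understates the changes of dim probe sets. First, 10299 probe sets with a mean of at least 7 over the 48 arrays were kept. For each, the difference from vertical plants was taken at each time as the mean of 4 arrays of reoriented plants minus the mean of 4 arrays of vertical plants, both sides of the stem together. This difference was highest at 30 min, among the 5 times, for 1916 probe sets. It lay above 0.5 in each of the 2 growing seasons alone for 96 of them, so the rule's limit of 150 probe sets was not reached.

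The pulvinus is a ring of tissue near a node of the grass stem that keeps the ability to elongate after the stem around it has stopped. When a stem is tipped over, cells on its lower side elongate more than those on its upper side, and the shoot bends upright. Growth of this kind draws on proteins that loosen cell walls, on hormones such as auxin and ethylene, and on the synthesis of new wall, membrane and protein. Polysomes are messenger RNAs that carry several ribosomes, so RNA prepared from them stands for messages in translation.

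All plants were maize of strain B73, about 6 weeks old and grown in pots in a greenhouse. Reoriented plants were turned by 90 degrees and sampled 2, 5, 15, 30 or 60 min later, and their pulvini were divided into an upper and a lower side. Control plants stayed vertical, and their pulvini were divided into a left and a right side. Every time point pooled 6 pulvini, the upper and lower sides were cut from the same stems, and one frozen powder per side gave both the total and the polysomal RNA. There were 24 groups of 2 arrays, 12 for each kind of RNA, and the 2 arrays of a group carry repetition numbers taken here as the 2 growing seasons that the study describes. A pool of plants is therefore the unit that was repeated, once in each season, and in such a bulk sample a smaller number of cells of a type and less RNA per cell cannot be told apart.

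Signals were taken as deposited, and the 2% trimmed mean of the 48 arrays ran from 495.8 to 499.1. The polysomal array of the upper side at 5 min in season 1 stood apart from its own plant pool. It correlated at 0.900 across probe sets with the lower side of that pool, against 0.972 to 0.992 for the other pairs of sides, and at 0.980 to 0.981 with the 5 min polysomal arrays of season 2. Calls at 5 min are given with and without it. Of marker genes for green shoot tissue, 15 of 21 probe sets were kept and none was at 0 on all arrays. Endosperm markers were kept for 1 of 17 probe sets and pollen markers for 5 of 11.

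The total RNA values that follow are those the probe sets were selected on, and are a description. The difference from vertical plants at 30 min had a median of 0.96 on the log2 scale (1.94-fold) and ran from 0.51 to 3.60 (1.43-fold to 12.1-fold). It was at least 1 in 44 probe sets and at least 2 in 9. The median over the 96 probe sets was 0.26 at 2 min and 0.07 at 5 min. It was 0.65 at 15 min, 0.96 at 30 min and 0.61 at 60 min, so most of the difference appeared between 5 and 15 min, and part of it was gone by 60 min. At 15 min the probe sets stood at a median of 72.5% of their 30 min difference, and at 60 min at 68.3%. The 5 times share the same vertical arrays.

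**Figure D1:**
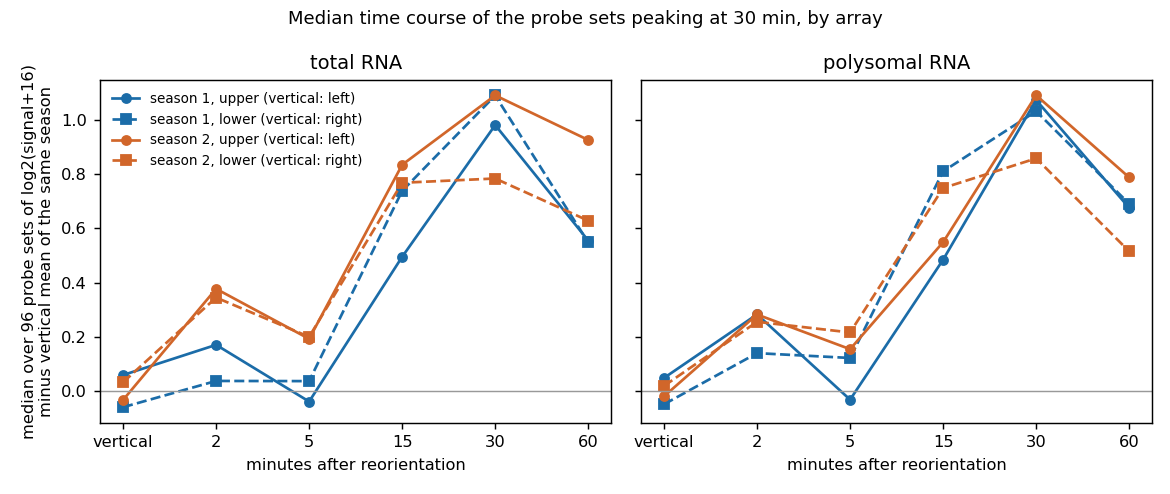
Median over the 96 probe sets of log2(signal + 16) minus the mean of the vertical arrays of the same season (y axis) against time after reorientation (x axis, vertical plants first), with 1 point per array for total RNA (left) and polysomal RNA (right). At 30 min the 4 total RNA arrays lie between 0.78 and 1.09 and the 4 polysomal arrays between 0.86 and 1.09, while the vertical arrays lie between -0.06 and 0.06.

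The peak was broad in most of these probe sets. The gap between the 30 min difference and that at the next highest time had a median of 0.21 in total RNA. It was under 0.1 in 22 probe sets and at least 0.5 in 7. The next highest time was 15 min for 46 probe sets and 60 min for 31. For 17 it was 2 min and for 2 it was 5 min. Those with 2 min as the next highest time had a median of 1.01 at 2 min, 0.60 at 15 min and 1.14 at 30 min. Their early value was mostly that of season 2, with a median at 2 min of 1.68 in that season and 0.34 in season 1. In polysomal RNA these medians were 1.83 and 0.30, while the 30 min medians were 0.93 in season 2 and 0.95 in season 1. Those with 60 min as the next highest time had medians of 0.10 at 2 min, 0.91 at 30 min and 0.68 at 60 min.

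The timing of the peak differed between the 2 seasons. The highest difference of season 1 alone was at 30 min in 82 probe sets and that of season 2 alone in 37, and 27 had it there in both. In season 2 alone it lay at 15 min in 32 probe sets, at 2 min in 16 and at 60 min in 10. A further 180 probe sets whose highest mean difference was at 30 min passed 0.5 in season 1 only, and 178 in season 2 only. The threshold cuts through a continuous range: Zm.1739.1.A1_at, just inside, stood at 0.50 and 0.53 in the 2 seasons, and Zm.18119.1.A1_at, just outside, at 0.71 and 0.499. Zm.5885.1.A1_at (0.504 and 0.991) and Zm.3086.2.A1_a_at (0.506 and 0.533) were the next inside, and Zm.10412.1.S1_at (0.637 and 0.499) and Zm.16832.1.A1_at (0.496 and 0.956) the next outside.

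**Figure D2:**
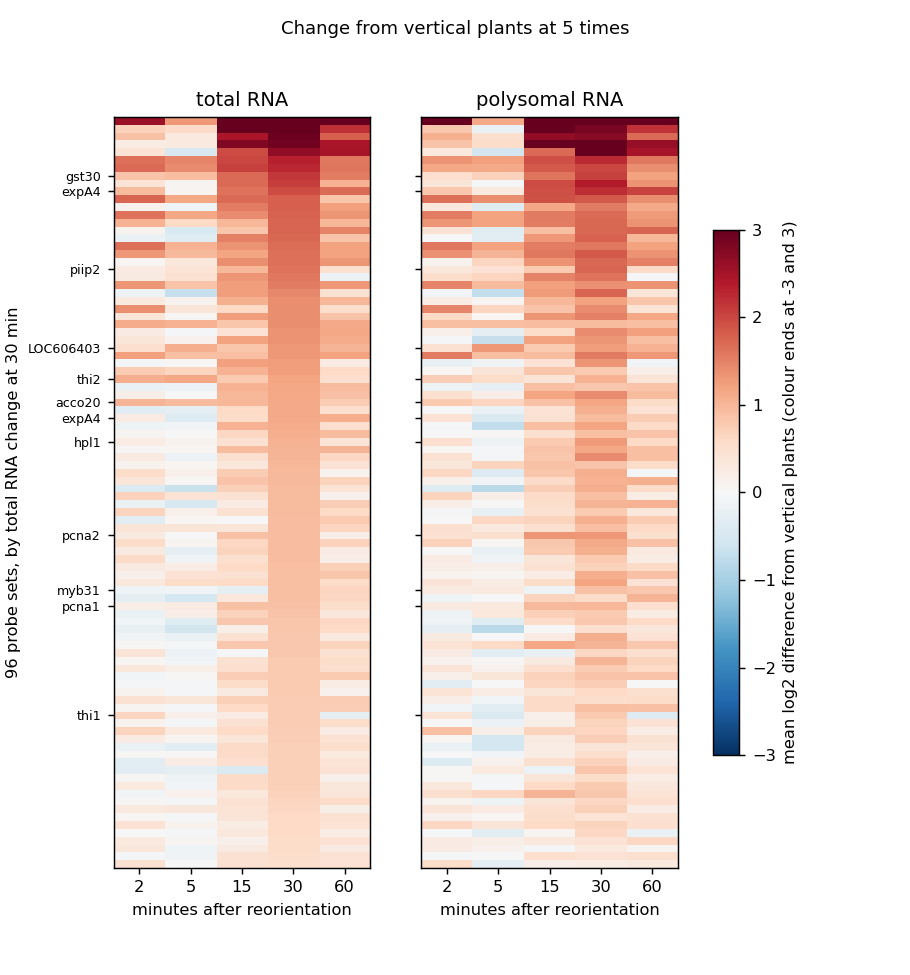
Mean log2 difference from vertical plants (colour) at each time (columns) for the 96 probe sets (rows, ordered by the 30 min difference in total RNA), in total RNA on the left and polysomal RNA on the right. The 12 probe sets with 1 listed gene are named, and in both panels the columns for 15, 30 and 60 min are redder than those for 2 and 5 min, with medians of 0.65, 0.96 and 0.61 in total RNA and 0.71, 1.05 and 0.59 in polysomal RNA.

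Polysomal RNA entered the rule only through the mean over 48 arrays, not through the timing, and there 79 of the 96 probe sets rose at 30 min and none fell by limma's adjusted p. Over all 10299 probe sets tested, 3.87% rose and 1.84% fell in that comparison. The median difference of the 96 was 1.05, with a range from 0.22 to 3.63, beside a median of -0.02 over all probe sets. All 96 lay above 0, and 95 did so in both seasons. In 65 of the 96 the 4 polysomal arrays of 30 min all lay above the 4 vertical arrays, which was so for 4.84% of all probe sets tested. At 2, 5, 15 and 60 min this held for 10, 11, 39 and 35 of the 96, beside 2.45%, 3.14%, 6.73% and 4.67% of all tested. Without the doubted array the other 3 arrays of 5 min lay above the vertical ones in 12 of the 96, beside 4.58% of all tested. Because the polysomal arrays come from the same powders as the total RNA arrays that chose the probe sets, a departure of a plant pool can be shared by both.

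The count rested in part on how the plant pool and the season were treated. The main fit took the sides of a plant pool as independent, although both were cut from the same stems. Their estimated correlation within a pool was 0.381 in polysomal RNA. A positive correlation makes the standard error of a mean over both sides too small, so the main count can be too high. Standard errors and adjusted p of single probe sets below share this limit, except where pools were a random block. With pools as a random block 50 of the 96 rose, and without the season in the fit 35 did. Without the lower 30 min array of season 1 the count was 45, and without the upper one it was 52. Without the doubted 5 min array it was 83. The share of all probe sets that rose under each of these fits is not given here. These counts therefore do not show whether calls over all probe sets moved alike. Green shoot markers moved at the same time: 4 of 15 fell in polysomal RNA at 30 min, none rose, and their median was -0.66. The summed total RNA signal of these markers ran from 28318 to 31072 in vertical plants and from 15635 to 31090 at 30 min. Their part in the results for the 96 probe sets was not tested.

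The polysomal peak fell at the same time as that of total RNA for 74 of the 96 probe sets, or 77.1%. Over all kept probe sets 13.2% had their highest polysomal difference at 30 min. The others of the 96 had it at 15 min (11), 2 min (5), 60 min (5) and 5 min (1). By season, the polysomal peak was at 30 min in 64 of the 96 in season 1 alone and in 49 in season 2 alone. In both seasons it was there in 33. For a total RNA peak at 15 min the same rule reached its limit, so the 150 probe sets with the highest difference there were taken. Of these, 137 had their polysomal peak at 15 min and 12 at 30 min. For a peak at 60 min the rule gave 110 probe sets, of which 98 had their polysomal peak at 60 min and 10 at 30 min. These are counts of values, with no test, since total and polysomal arrays share powders.

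In size, too, polysomal and total RNA were close, as the plot of one against the other shows. The polysomal difference at 30 min minus that of total RNA had a median of -0.02 and ran from -0.45 to 0.47, and 47 of the 96 lay above 0. Pearson's r across the 96 probe sets was 0.956, a description over probe sets that share arrays, powders and the selection. The ratio of polysomal to total signal was also similar before and after, with a median log2 value of 0.09 in vertical plants and 0.11 at 30 min, beside 0.06 and 0.04 over all kept probe sets.

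**Figure D3:**
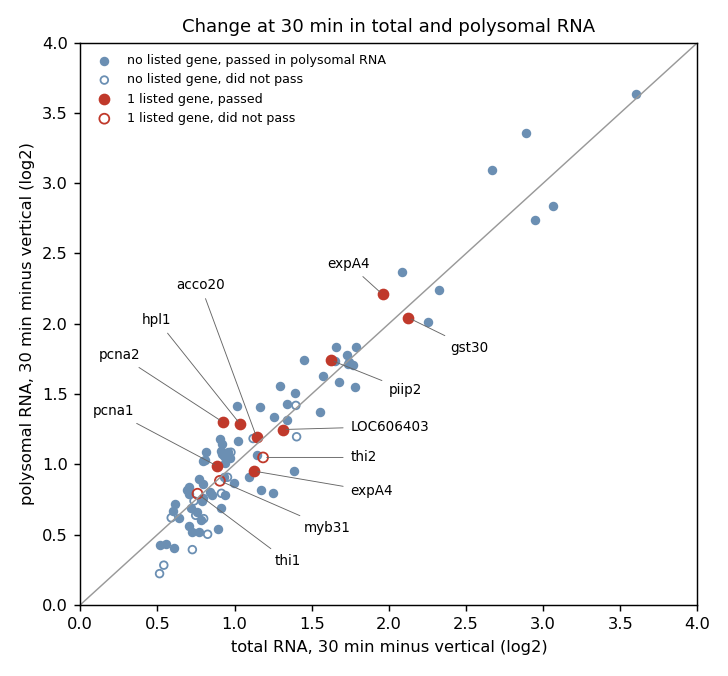
Difference from vertical plants at 30 min in polysomal RNA (y axis, log2) against that in total RNA (x axis, log2), 1 point per probe set, with the line of equal values. Filled points are the 79 that passed limma's adjusted p in polysomal RNA, open points are those that did not, and red points with names are the 12 probe sets with 1 listed gene.

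Of the 96 probe sets, 12 have 1 listed gene, for 11 genes, and 84 have none. Those with a known role belong to the growth of the cell wall, DNA replication, detoxification, fatty acid and ethylene pathways, a regulator of lignin genes, and the making of thiamine. No role is given here for piip2 and LOC606403. Of the 12, 9 rose in polysomal RNA at 30 min by limma's adjusted p, beside 79 of the 96 and 3.87% of all tested. The probe sets of myb31, thi2 and thi1 did not pass. Array values are given below as log2(signal + 16), the upper side before the lower and the left before the right.

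The largest change in a gene of growth was that of expA4, an alpha-expansin. Expansins loosen the bonds between wall polymers and so let a cell extend. Probe set Zm.13728.2.S1_at of this gene had polysomal values of 7.35 and 7.21 in season 1 and 5.51 and 5.70 in season 2 in vertical plants, and of 9.37 and 8.96 in season 1 and 8.23 and 8.05 in season 2 at 30 min. Every array of 30 min lay above every vertical array, although the vertical plants of season 2 started lower by more than 1 log2 unit. It rose by 2.21 (SE 0.23, adjusted p = 4.58e-05), or 4.62-fold. It had already risen at 15 min by 1.94 (SE 0.23, adjusted p = 5.84e-05), and at 60 min it still stood higher by 2.02 (SE 0.23, adjusted p = 0.000444).

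A further probe set of expA4, Zm.13728.2.S1_a_at, showed a smaller difference. Its vertical polysomal values were 8.89 and 8.01 in season 1 and 7.39 and 7.11 in season 2, and those of 30 min were 9.18 and 9.04 in season 1 and 8.65 and 8.34 in season 2. The groups overlapped, since the left vertical array of season 1 lay above both 30 min arrays of season 2. It rose by 0.95 (SE 0.22, adjusted p = 0.0217), and with pools as a random block it missed (adjusted p = 0.0698), as it did without the season in the fit (0.516). The call was also lost without the season 2 left vertical array (0.0732), the season 1 lower 30 min array (0.0571), the season 2 lower 30 min array (0.0694), the season 1 right vertical array (0.0772) and the season 2 upper 30 min array (0.0626), where parentheses give the adjusted p. The remaining probe set of the gene, Zm.13728.1.S1_at, is not among the 96, and its polysomal difference at 30 min was 0.67 (SE 0.27, adjusted p = 0.156). Its total RNA difference was 0.32 in season 1 and 0.66 in season 2. The probe sets of this gene thus had differences of 2.21, 0.95 and 0.67, and their signals cannot be set against each other as levels.

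Both genes for the proliferating cell nuclear antigen, the ring that holds DNA polymerase on its template, were among the 96. For pcna1 the vertical polysomal values were 7.19 and 7.29 in season 1 and 8.02 and 8.22 in season 2, against 8.36 and 8.62 in season 1 and 8.99 and 8.69 in season 2 at 30 min. The groups did not overlap, and the vertical plants of season 1 were the lowest arrays. It rose by 0.99 (SE 0.21, adjusted p = 0.0116), or 1.98-fold, and also passed with pools as a random block (adjusted p = 0.0387). Its value at 15 min was close to that, 0.98 (SE 0.21, adjusted p = 0.00826), and at 60 min the difference was 0.51 (adjusted p = 0.164). Its 15 min arrays were 8.55 and 9.13 in season 1 and 8.63 and 8.345 in season 2, so season 2 lay nearer its vertical values. The call at 30 min was lost without the season (0.106), and without the season 1 left vertical array (0.0578), the season 1 lower 30 min array (0.0727) and the season 1 right vertical array (0.0634).

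The second gene, pcna2, had vertical polysomal values of 6.31 and 6.31 in season 1 and 7.65 and 7.97 in season 2, and 7.52 and 8.34 in season 1 and 9.05 and 8.52 in season 2 at 30 min. Within each season the 30 min arrays lay above the vertical ones, but the upper 30 min array of season 1 lay below both vertical arrays of season 2. Its rise of 1.30 (SE 0.37, adjusted p = 0.04997) lay at the edge of the threshold. It missed with pools as a random block (adjusted p = 0.138), after quantile normalization (0.0623), without a filter (0.0619) and without the season (0.210). The call was also lost without the season 1 left vertical array (0.194), the season 1 lower 30 min array (0.186), the season 2 lower 30 min array (0.0753), the season 1 right vertical array (0.207), the season 1 upper 30 min array (0.0587) and the season 2 upper 30 min array (0.131). At 15 min it rose by 1.31 (SE 0.37, adjusted p = 0.0386), slightly above its 30 min value, so its mean polysomal peak was at 15 min. That peak was one of season 1, where both 15 min arrays lay above both 30 min arrays. In season 2 both 15 min arrays lay below both 30 min arrays. The lower 15 min array of season 2 also lay below the right vertical array of that season. Together the pair stood at 0.88 and 0.89 at 15 min in total RNA and at 0.89 and 0.93 at 30 min, with gaps under 0.1 in both.

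**Figure D4:**
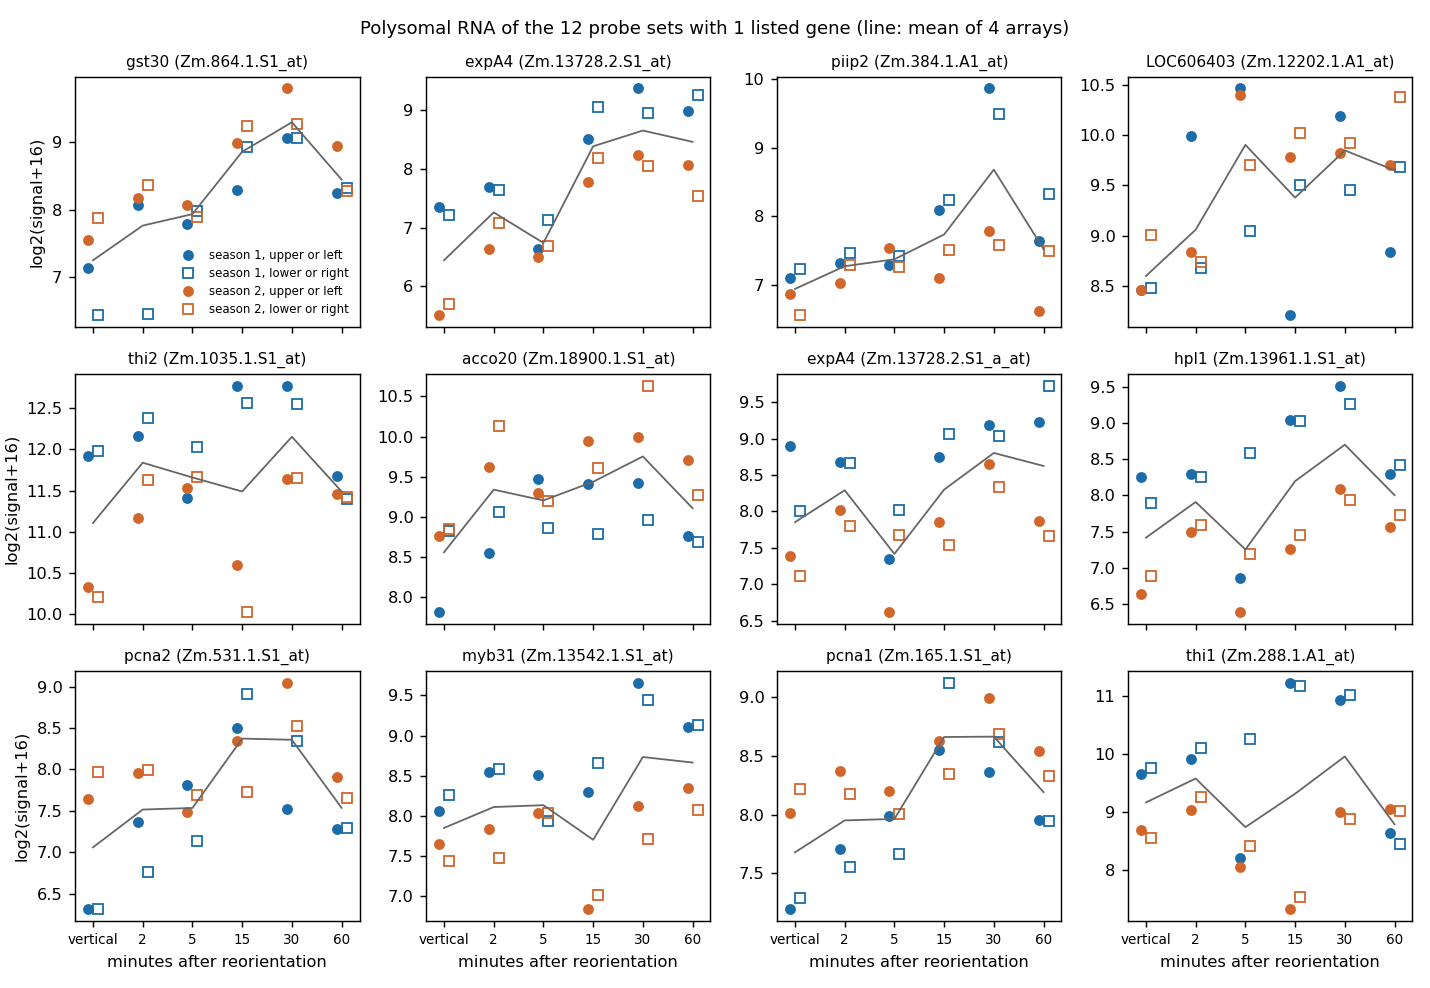
Polysomal signal, log2(signal + 16) (y axis), of the 12 probe sets with 1 listed gene, for vertical plants and at each time (x axis). Each point is 1 array, coloured by season, a filled circle for the upper or left side and an open square for the lower or right side, and the line joins the means of 4 arrays. In gst30 the 4 arrays of 30 min lie between 9.06 and 9.80 and the vertical arrays between 6.44 and 7.88.

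Among enzymes of detoxification, gst30, a glutathione S-transferase, had the highest total RNA difference of the 12 at 30 min (2.12). These enzymes join glutathione to reactive compounds. Its vertical polysomal values were 7.14 and 6.44 in season 1 and 7.55 and 7.88 in season 2, and those at 30 min were 9.06 and 9.06 in season 1 and 9.80 and 9.27 in season 2. The groups were apart by more than 1 log2 unit. It rose by 2.04 (SE 0.27, adjusted p = 0.000273), or 4.12-fold, and by 1.61 at 15 min (adjusted p = 0.00118) and 1.20 at 60 min (adjusted p = 0.0177). In total RNA the difference at 30 min was 2.90 in season 1 and 1.34 in season 2, where the vertical plants of season 1 were the lower ones. Of the 18 kept glutathione S-transferase probe sets, gst30 was the 1 that rose in polysomal RNA at 30 min, and 1 fell. Over all probe sets tested, 3.87% rose and 1.84% fell. Of the 18, 11 lay above 0, and their median was 0.26, beside 45.2% and -0.02 over all. Another of them, gst12, stood at 1.29 and did not pass (SE 0.41, adjusted p = 0.0800), with 1.70 in total RNA.

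A pair of genes belongs to pathways known from wounding. The product of hpl1, a hydroperoxide lyase, splits fatty acid hydroperoxides into the aldehydes of leaf odour, and that of acco20, an ACC oxidase, makes ethylene. For hpl1 the vertical polysomal values were 8.25 and 7.90 in season 1 and 6.63 and 6.88 in season 2, and the 30 min values were 9.52 and 9.26 in season 1 and 8.09 and 7.93 in season 2. Season 1 arrays were higher throughout, so the groups overlapped between seasons and not within one. It rose by 1.29 (SE 0.20, adjusted p = 0.00156), or 2.44-fold, and passed with pools as a random block (adjusted p = 0.00785), but not without the season (0.365). In total RNA its 30 min difference of 1.04 stood 0.59 above that of 15 min, one of the 7 gaps of at least 0.5.

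The ACC oxidase gene acco20 had vertical polysomal values of 7.82 and 8.82 in season 1 and 8.76 and 8.85 in season 2. At 30 min they were 9.43 and 8.96 in season 1 and 9.99 and 10.63 in season 2, all above the vertical ones, with the season 2 arrays highest. It rose by 1.19 (SE 0.22, adjusted p = 0.00542) and passed with pools as a random block (adjusted p = 0.0314), but not without the season (0.192). Unlike hpl1, it stood high from the start in total RNA, with differences of 1.01 after 2 min and 0.94 after 5 min, and of 0.99 and 1.14 after 15 and 30 min. Of the 13 kept probe sets for jasmonate, ethylene and wound responses, hpl1 and acco20 were the 2 that rose in polysomal RNA at 30 min. None fell, and 12 lay above 0, with a median of 0.28. Over all probe sets tested, 3.87% rose, 1.84% fell and 45.2% lay above 0, with a median of -0.02. Some of the 12 were near 0, such as opr8 at 0.02 and the 2 probe sets of aoc1 at 0.01 and 0.08.

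The regulator among the 12 is myb31, a MYB factor that represses lignin genes in maize. Its vertical polysomal values were 8.06 and 8.26 in season 1 and 7.65 and 7.44 in season 2, and at 30 min they were 9.66 and 9.44 in season 1 and 8.12 and 7.71 in season 2. Season 1 arrays stood well apart from their controls, and season 2 arrays by much less. Its difference of 0.88 (SE 0.25) did not pass, at an adjusted p of 0.0502. In total RNA it was the 1 of the 12 that lay below vertical plants at 15 min, at -0.28, followed by 0.90 at 30 min and 0.65 at 60 min. It passed with a filter at the 40th percentile (0.0495), and when any 1 of these was left out: the left vertical array of season 2 (0.0461), the lower 30 min array of season 2 (0.0317), the upper 30 min array of season 2 (0.0383) or the doubted array (0.0450). None of the 5 kept MYB probe sets passed, and their median was 0.51.

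Both thiamine genes of the annotation were chosen. The products of thi1 and thi2 make the thiazole part of the vitamin thiamine. For thi2 the vertical polysomal values were 11.92 and 11.98 in season 1 and 10.32 and 10.20 in season 2, and the 30 min values were 12.77 and 12.56 in season 1 and 11.64 and 11.65 in season 2. The difference of 1.05 (SE 0.37) did not pass (adjusted p = 0.113). For thi1 the vertical values were 9.65 and 9.76 in season 1 and 8.69 and 8.56 in season 2, and the 30 min values were 10.94 and 11.02 in season 1 and 8.99 and 8.88 in season 2. Within each season the 30 min arrays were higher in both genes, and in both genes and both groups season 1 was higher than season 2. The difference of thi1 was 0.79 (SE 0.60, adjusted p = 0.481). The median of the pair was 0.92.

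Of the remaining named members, piip2 had vertical polysomal values of 7.11 and 7.23 in season 1 and 6.87 and 6.56 in season 2 and 30 min values of 9.87 and 9.49 in season 1 and 7.79 and 7.58 in season 2. The groups did not overlap, and the season 1 arrays of 30 min were far above the rest. It rose by 1.74 (SE 0.31, adjusted p = 0.00365), or 3.34-fold, but missed without the season (0.0869), with seasonal differences of 2.51 and 0.97. At 60 min its difference of 0.58 did not pass (adjusted p = 0.294).

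For LOC606403 the vertical polysomal values were 8.46 and 8.48 in season 1 and 8.46 and 9.004 in season 2, and those of 30 min were 10.19 and 9.45 in season 1 and 9.82 and 9.91 in season 2. The groups did not overlap. It rose by 1.25 (SE 0.30, adjusted p = 0.0237) and missed with pools as a random block (adjusted p = 0.0924). The call was lost, too, without any 1 of the season 2 left vertical array (0.0661), the season 1 lower 30 min array (0.0788), the season 2 lower 30 min array (0.0619), the season 1 right vertical array (0.0860) and the season 1 upper 30 min array (0.133). At 5 min it rose by 1.30 (SE 0.30, adjusted p = 0.0299). The 5 min value was 1.20 (adjusted p = 0.109) without the doubted array, so that the earlier rise then missed.

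The largest changes of all were in probe sets with no listed gene, and 8 of the 10 highest total RNA differences belong to them. Zm.1424.1.A1_at had vertical polysomal values of 6.33 and 6.40 in season 1 and 6.40 and 5.09 in season 2, and 30 min values of 10.07 and 10.48 in season 1 and 9.31 and 8.89 in season 2. The groups were more than 2 log2 units apart. It rose by 3.63 (SE 0.70, adjusted p = 0.00681), or 12.4-fold, and its right vertical array of season 2 was the lowest of the 8. Its call was lost without the season 1 lower 30 min array (0.0521). It also stood high at 2 min, by 2.59 in total RNA, and at 1.29 at 5 min.

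Zm.16992.1.A1_at had the smallest adjusted p of the 5 largest. Its vertical polysomal values were 5.66 and 6.20 in season 1 and 5.93 and 5.77 in season 2, and its 30 min values were 10.41 and 10.10 in season 1 and 8.09 and 8.40 in season 2. It rose by 3.36 (SE 0.34, adjusted p = 2.88e-05) at 30 min and by 3.32 at 15 min, so its polysomal values at these times were nearly equal. Zm.10172.1.A1_at had vertical values of 6.78 and 6.43 in season 1 and 7.47 and 8.04 in season 2, and 30 min values of 10.81 and 11.14 in season 1 and 9.35 and 9.80 in season 2. It rose by 3.10 (SE 0.48, adjusted p = 0.00121), and by 1.70 at 15 min (adjusted p = 0.0403). In both the groups did not overlap.

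Differences between seasons were wide in others of the largest. Zm.12227.1.S1_at had vertical polysomal values of 6.08 and 6.36 in season 1 and 8.21 and 8.38 in season 2, against 10.78 and 9.96 in season 1 and 10.20 and 9.05 in season 2 at 30 min. It rose by 2.74 (SE 0.42, adjusted p = 0.00120), with 4.15 in season 1 and 1.33 in season 2. The groups did not overlap. Zm.17635.1.A1_s_at had vertical values of 8.10 and 6.56 in season 1 and 4.17 and 5.28 in season 2, against 10.17 and 10.16 in season 1 and 7.51 and 7.62 in season 2 at 30 min. Here the season 2 arrays of 30 min lay below the left vertical array of season 1, so the groups overlapped between seasons. It rose by 2.84 (SE 0.50, adjusted p = 0.00365) and missed without the season in the fit (0.144).

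Zm.16347.1.A1_at had the smallest adjusted p of the 96. Its vertical polysomal values were 8.998 and 9.03 in season 1 and 8.34 and 8.20 in season 2, and its 30 min values were 11.49 and 11.64 in season 1 and 10.68 and 10.22 in season 2, with more than 1 log2 unit between the groups. It rose by 2.37 (SE 0.17, adjusted p = 2.86e-06), or 5.16-fold. The pair Zm.14507.1.A1_a_at and Zm.14507.1.A1_x_at belong to 1 UniGene cluster, so they share sequence, and rose by 2.24 (SE 0.41, adjusted p = 0.00461) and 2.01 (SE 0.42, adjusted p = 0.0104). The second of them missed without the season 1 lower 30 min array (0.0555). In all, the 96 probe sets belong to 91 clusters, and 4 clusters hold 9 of them.

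At the other end, the 5 smallest polysomal differences at 30 min were those of Zm.1739.1.A1_at (0.22), Zm.2015.2.S1_at (0.28), Zm.3670.3.S1_at (0.39), Zm.5897.1.A1_at (0.40) and Zm.3086.2.A1_a_at (0.42). Of these, Zm.5897.1.A1_at and Zm.3086.2.A1_a_at rose, with adjusted p of 0.0159 and 0.00705, and the others did not pass. Both missed without the season in the fit (0.0599 and 0.0589). The call of Zm.5897.1.A1_at was also lost with pools as a random block (0.0835), and without the season 1 left vertical array (0.0602), the season 1 lower 30 min array (0.0999), the season 1 right vertical array (0.0601) and the season 1 upper 30 min array (0.0932).

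As a group the 96 probe sets are dim in vertical plants. Their median log2 signal there in total RNA was 7.74, against 9.06 over all kept probe sets. Of the 96, 19.8% lay below 7, against 2.33% of all kept. The rule subtracted these same vertical total RNA values, so it favours probe sets that are low there, and the comparison is a description. The filter on the mean over all arrays keeps a probe set that is dim in vertical plants once it is bright in others.

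Few of the 96 differed between 30 min and the times beside it in polysomal RNA. Against 15 min 4 were higher and none lower, where 0.35% of all probe sets tested were higher and 0.592% lower. The median difference was 0.28. These 4, none with a listed gene, were Zm.17508.1.S1_at, Zm.4997.1.A1_at, Zm.9932.1.A1_at and Zm.8348.1.A1_at, the last named after its values were seen. Zm.17508.1.S1_at had polysomal values of 6.85 and 7.005 in season 1 and 7.66 and 7.79 in season 2 at 15 min and of 8.38 and 7.96 in season 1 and 8.63 and 7.97 in season 2 at 30 min. Its 30 min arrays all lay above those of 15 min. It was higher by 0.91 (SE 0.20, adjusted p = 0.0421). Zm.4997.1.A1_at, Zm.9932.1.A1_at and Zm.8348.1.A1_at were higher by 0.85, 0.82 and 0.75, with adjusted p of 0.0133, 0.0405 and 0.0104.

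With pools as a random block 0 of the 4 passed, at adjusted p of 0.0576 to 0.209, and 29 of the 96 were higher at limma's unadjusted p under 0.05 in the fit without it, beside 4.71% of all tested. The count of 4 was 0 without the lower 30 min or the upper 15 min array of season 1. It was 1 without the lower 15 min, the lower 30 min or the upper 15 min array of season 2, and 2 without either upper 30 min array. Without the doubted array it was 7.

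Against 60 min 5 of the 96 were higher at 30 min and none lower, where 0.612% of all tested were higher and 0.155% lower. The median difference was 0.39. Zm.10417.1.S1_at had polysomal values of 9.16 and 9.09 in season 1 and 8.93 and 8.71 in season 2 at 30 min and of 7.40 and 8.19 in season 1 and 6.49 and 7.12 in season 2 at 60 min. It was higher at 30 min by 1.67 (SE 0.16, adjusted p = 6.63e-05). At 60 min it stood -0.05 from vertical plants (SE 0.16). Zm.17508.1.S1_at was higher by 1.41 (adjusted p = 0.00213), Zm.11848.1.A1_at by 1.37 (0.0130), Zm.16347.1.A1_at by 1.01 (0.0111) and Zm.13545.1.S1_at by 0.79 (0.0323), the last named after its values were seen. Zm.17508.1.S1_at is thus the 1 probe set that passed against both neighbouring times.

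With pools as a random block 4 of these 5 passed, and Zm.13545.1.S1_at missed (adjusted p = 0.182). The count was 2 without the lower 30 min array of season 1 or the lower 60 min array of season 2. It was 3 without the upper 30 min or the upper 60 min array of season 1, and 1 without the season in the fit. Zm.10417.1.S1_at and Zm.17508.1.S1_at passed whichever of 9 arrays was left out, and the other 3 each missed without at least 3 of them.

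At 2 min 0 of the 96 passed the adjusted p in polysomal RNA, where 0.0485% of all tested were higher and 0.00971% lower. At limma's unadjusted p under 0.05, 29 of the 96 were higher and 1 lower, beside 7.4% and 5.33% of all tested. At that time 75 of the 96 lay above 0, with a median of 0.30 beside 0.02 over all. The count at the adjusted p was 8 when the left vertical array of season 1 was left out, and it was 1 without the right one or without the lower 2 min array of season 1. At 5 min 3 were higher and 2 lower, where 1.27% of all tested were higher and 1.6% lower. The 3 higher were LOC606403, Zm.10417.1.S1_at (by 0.63, adjusted p = 0.0433) and Zm.1247.1.S1_at (by 0.59, adjusted p = 0.0237).

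Both lower probe sets stood above vertical plants later, at 30 min. Zm.4117.1.A1_at had vertical polysomal values of 8.75 and 8.43 in season 1 and 7.97 and 8.42 in season 2, and 5 min values of 7.35 and 8.10 in season 1 and 7.43 and 7.45 in season 2. It fell by 0.81 at 5 min (SE 0.20, adjusted p = 0.0403) and rose by 1.09 (SE 0.20, adjusted p = 0.00435) at 30 min. Zm.10408.1.A1_at fell by 0.82 at 5 min (SE 0.14, adjusted p = 0.00777), and its 30 min difference of 0.50 did not pass (adjusted p = 0.0518). Without the doubted array the count of 5 was 1, and Zm.10408.1.A1_at was the one left (adjusted p = 0.0182). The others then had adjusted p of 0.0733 to 0.148. It was 0 with pools as a random block, without the season in the fit, and when the left vertical array of season 2 was left out. It was 1 without the lower 5 min or the right vertical array of season 2, 3 without the right vertical array of season 1, 9 without the left one and 10 without the upper 5 min array of season 2.

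At 15 and 60 min many of the 96 were already or still high. At 15 min 58 rose and none fell, beside 5.2% and 2.91% of all tested, with a median of 0.71. At 60 min 42 rose and none fell, beside 3.01% and 2.29%, with a median of 0.59. With pools as a random block these counts were 28 and 17, and without the season 24 and 9. The shares of all probe sets under these alternative fits, and with arrays left out, are not given here. The 15 min count was 34 without the upper 15 min array of season 2, 38 without the lower one, 37 without the season 2 left vertical array and 36 without the right one. The 60 min count was 18 without the lower 60 min array of season 1, 26 without the upper one, 23 without the upper 60 min array of season 2, 25 without the left vertical array of that season and 22 without the right one.

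The upper side elongates slowly and the lower side fast, so the side comparison asks whether the 96 probe sets changed on one side of the bending stem. In 0 of the 96 did limma's adjusted p pass for the lower minus the upper side at 30 min, in total or in polysomal RNA, and over all 10299 probe sets the share was 0.0% in each. At an unadjusted p under 0.05, 0 of the 96 passed in total RNA and 1, lower on the lower side, did so in polysomal RNA, beside 0.728% and 0.563% of all tested in either direction. The differences were small, with medians of -0.06 in total RNA (65 of 96 below 0) and -0.10 in polysomal RNA (70 of 96 below 0), beside median standard errors of 0.31 and 0.29. The largest in total RNA was -0.68. Each of these comparisons rests on 2 arrays a side. The fit took the 2 sides as independent, although both were cut from the same stems. Their estimated correlation within a pool was 0.576 in total RNA and 0.381 in polysomal RNA. A positive correlation makes the standard error of a difference between sides too large, so few calls cannot show that the sides were alike. With pools as a random block 0 of the 96 passed the adjusted p as well.

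In polysomal RNA all 96 lay above vertical plants on each side at 30 min, and 82 did so by more than 0.5 on each, beside 4.57% of all kept probe sets. In total RNA, whose mean over both sides chose the probe sets, 90 stood more than 0.5 above on each side and 60 had their highest value at 30 min on each. The median difference was 1.09 on the upper side and 0.96 on the lower side in total RNA, and 1.12 and 0.97 in polysomal RNA. Setting each side against its own vertical side, so that a standing difference between left and right is removed, left 0 of the 96 past the adjusted p in total RNA (0.0% of all tested) and 0 at an unadjusted p under 0.05 (0.786% of all), with a median of -0.01. In vertical plants, right minus left gave 0 of the 96 as well (0.0% of all tested), with 1 at an unadjusted p under 0.05 (1.22% of all).

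**Figure D5:**
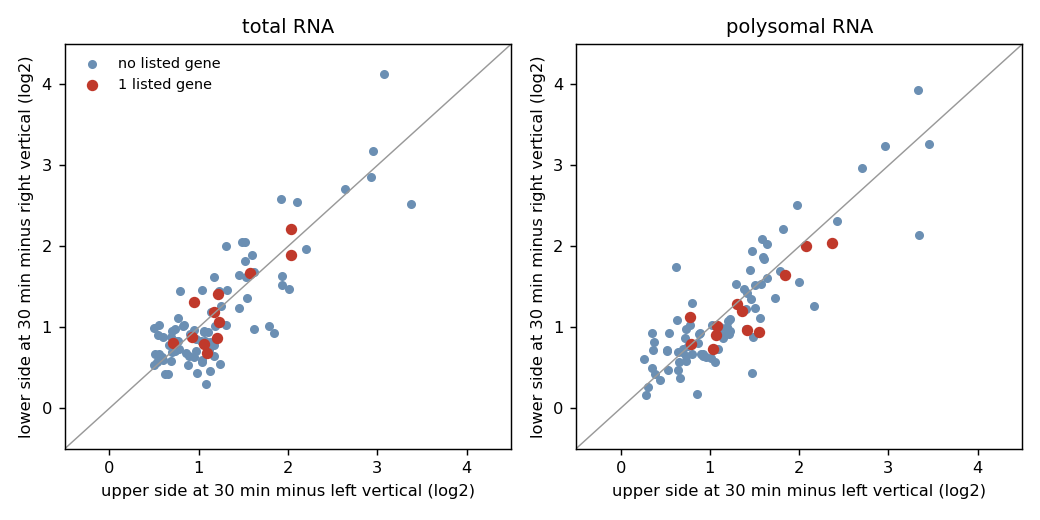
Difference from vertical plants at 30 min on the lower side against the right vertical side (y axis, log2) and on the upper side against the left vertical side (x axis, log2), 1 point per probe set, in total RNA (left) and polysomal RNA (right), with the line of equal values. Red points are the 12 probe sets with 1 listed gene, and 0 of the 96 passed limma's adjusted p for a difference between sides.

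Other genes of the pathways that the named members belong to were counted in polysomal RNA at 30 min, beside the 3.87% of all probe sets that rose, the 1.84% that fell and the median of -0.02. Of 14 kept expansin probe sets the 2 of expA4 rose and none fell, with a median of 0.19. Of 12 for the cell cycle and DNA replication, pcna1 and pcna2 rose and 1 histone H1 probe set fell, with a median of -0.13. Of 34 for the cell wall and lignin, the same 2 of expA4 rose, none fell, and the median was 0.02. Of 8 for early stress transcription factors, myb31 among them, 1 rose and none fell (median 0.36).

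Other lists held none of the 96. Of 7 kept abscisic acid and drought probe sets 3 rose (median 0.33), all of 1 dehydrin gene. Of 18 for calcium, phospholipase and inositol signalling 2 rose (median 0.19), and of 17 for protein kinases and phosphatases 1 rose (median -0.12). Of 33 for aquaporins and ion transport 4 rose and 4 fell (median -0.26). None of 11 for redox enzymes and peroxidases, 15 for sucrose and starch, 19 for heat shock and chaperones and 24 for the cytoskeleton passed, with medians of -0.17, -0.12, 0.11 and -0.08. The 1 kept endosperm probe set and the 5 kept for pollen did not pass either, with medians of -0.05 and 0.32.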

How the data were processed

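RNA from 24 groups of maize pulvini was hybridised to 48 one-colour oligonucleotide arrays of 17545 probe sets. The deposited values are signal intensity from GCOS, the authors' array software per the submitters' processing notes. Its version, scaling target and detection calls are not given in the sources used here. The values were used as deposited, and the number of arrays limits the precision.

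Here log2(signal + 16) was taken and the 10299 probe sets with a mean of at least 7 over 48 arrays were kept. limma 3.58.1 (R 4.3.3, statmod 1.5.0) was fitted to each kind of RNA with 12 group means and the season as a fixed effect, with 11 residual degrees of freedom and a trended eBayes. P-values were adjusted by Benjamini-Hochberg over all 10299, with a threshold of 0.05. The fit was tested on simulated data with independent arrays, so that test did not cover the correlation within plant pools. Replicates are pools of plants, 1 per season. The repetition number was taken as the growing season of the series design. Same-numbered arrays deviated together, with a median correlation over 66 pairs of groups of 0.626 for total RNA, with a range from 0.508 to 0.894, and of 0.664 for polysomal RNA, from -0.0231 to 0.898. Total and polysomal arrays of a side share a powder, and both sides share plants. The correlation of the 2 sides of a pool, estimated by limma, was 0.381 in polysomal and 0.576 in total RNA.

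Genes came from the platform annotation, which gives 1 gene for 1452 probe sets, several for 1 and none for 16092. Of the 11 genes of the 96 probe sets, 10 were found in RefSeq's table for Zm-B73-REFERENCE-NAM-5.0, which gave their names. The members and lists were chosen with earlier results of these data known, and the lists for expansins, the cell cycle, thiamine and MYB factors after the members were seen. Named were members with 1 gene and the other probe sets of that gene, the 10 highest in total RNA at 30 min, the 5 highest and 5 lowest in polysomal RNA, those at the threshold, and those that passed between times (at most 3 per direction) or at 2 or 5 min. Only 96 probe sets qualified, so neighbours of the threshold stand in for probe sets beyond the limit of 150. The alternatives were a pseudocount of 1, quantile normalization, a filter at the 40th percentile, no filter, no season, pools as a random block, and each array left out in turn. Promoter motifs were not analysed here.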

Additional observations from a re-analysis of the deposited data

Results flagged for a closer look

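In polysomal RNA the response at 30 min differed from that at 15 min, by limma's test of the difference itself, for Zm.17508.1.S1_at (0.91, adjusted p = 0.0421), Zm.4997.1.A1_at (0.85, adjusted p = 0.0133), Zm.9932.1.A1_at (0.82, adjusted p = 0.0405) and Zm.8348.1.A1_at (0.75, adjusted p = 0.0104). It differed from that at 60 min for Zm.10417.1.S1_at (1.67, adjusted p = 6.63e-05), Zm.17508.1.S1_at (1.41, adjusted p = 0.00213), Zm.11848.1.A1_at (1.37, adjusted p = 0.0130), Zm.16347.1.A1_at (1.01, adjusted p = 0.0111) and Zm.13545.1.S1_at (0.79, adjusted p = 0.0323). All of these are log2 differences, higher at 30 min.

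The 12 probe sets with 1 listed gene were screened for opposite directions in the 2 seasons, and the other 84 were not. In those below, every polysomal array of season 1 at the time given moved one way from the vertical plants of its season. Every array of season 2 moved the other way. These differences between seasons were not tested. At 5 min the expansin expA4 (Zm.13728.2.S1_at) stood at -0.40 in season 1 and 0.99 in season 2, and pcna2 at 1.17 and -0.22. The doubted array is 1 of the 2 season 1 arrays in both, and without it season 1 stood at -0.15 for expA4 and 0.83 for pcna2. At 15 min the lignin regulator myb31 stood at 0.32 and -0.61, and the thiamine gene thi1 at 1.49 and -1.19. At 60 min thi1 stood at -1.16 and 0.41, and thi2 at -0.41 and 1.18.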

How the results depend on the processing

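The counts of the 96 probe sets that passed moved with the season, the plant pool and single arrays. Shares of all probe sets that passed are given above for the main fit only. Counts under the alternatives, here and above, thus do not show whether calls over all probe sets moved alike. Without the replicate block, that is without the season, 35 passed in polysomal RNA at 30 min (79 with it), 24 at 15 min, 9 at 60 min and 0 at 5 min, with 0 for 30 against 15 min and 1 for 30 against 60 min. With pools as a random block these were 50, 28, 17 and 0, with 0 for 30 against 15 min. A pseudocount of 1 gave 2 for 30 against 15 min. No filter gave 2 there and 3 at 5 min. With 1 array left out the counts ran from 45 to 83 at 30 min, 34 to 61 at 15 min, 18 to 45 at 60 min, 0 to 10 at 5 min and 0 to 8 at 2 min. They ran from 0 to 7 for 30 against 15 min and from 2 to 7 for 30 against 60 min. The 4 side comparisons gave 0 under every alternative run. By the rule, 62 to 92 of the 96 were chosen again with 1 total RNA array left out (62 without the lower 30 min array of season 1), 78 after quantile normalization and 74 without a filter. Among the values of single probe sets under alternatives, 440 kept their side of the threshold, 135 missed it and 5 passed it anew, and none changed sign. The cause of the other changes was not tested. Signal over background is not given in the table, so what dim probe sets limit was not tested.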
